A study of Mus musculus with 18 samples.

Results

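The cytochrome P450 family 2 (Cyp2) genes were followed in 18 mouse liver RNA-Seq libraries. Members were taken by symbol alone, as rows named Cyp2 followed by 1 letter and a number with nothing after it. The rule found 48 of the 55487 genes in the count table, in 13 subfamilies: 15 Cyp2c, 8 Cyp2d, 8 Cyp2j, 5 Cyp2b and 4 Cyp2a genes, and 1 gene each in Cyp2e, Cyp2f, Cyp2g, Cyp2r, Cyp2s, Cyp2t, Cyp2u and Cyp2w. Rows marked as pseudogenes (a ps suffix) lay outside it, and all 48 members are annotated as protein coding.

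The mice were male C57BL/6J, with 6 livers in each of 3 groups and 1 library per liver. Every mouse had received an adeno-associated virus (AAV8) that expresses its cargo from the hepatocyte-specific TBG promoter, 1 week before a diet of 16 weeks began. CON-GFP mice carried GFP and ate a purified control diet. FPC-GFP mice carried GFP and ate the FPC diet, a diet high in fat with added fructose, palmitate and cholesterol that was given together with fructose-glucose water. FPC-LIPA mice ate the FPC diet and carried human LIPA, the gene of lysosomal acid lipase. No group was free of virus, and LIPA on the control diet was not analysed here, so LIPA is compared on the FPC diet alone. The table counts mouse genes, so the human transgene itself was not measured here.

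Totals ran from 16632146 to 37739301 counts per library. The hepatocyte markers found in the table (9 of 10) summed to 53479 CPM (read counts scaled to a common library total) or more in every library, with albumin the highest. Xist was at or below 0.196 CPM and Kdm5d, a Y-linked gene, at or above 9.98 CPM in all libraries, as in males. FPC-LIPA 36, 37 and 39 stood apart from the other libraries: 89 rows of ribosomal protein genes took 6.49% to 8.16% of their counts, against 2.17% to 2.95% in FPC-LIPA 31, 33 and 34, 1.44% to 1.80% in FPC-GFP and 1.75% to 2.55% in CON-GFP. For members that passed with LIPA, the log2 fold change with FPC-LIPA 31, 33 and 34 alone is given as well. Other values with LIPA rest on all 6 libraries unless the text says otherwise.

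Family 2 enzymes are haem proteins of the endoplasmic reticulum that take electrons from P450 oxidoreductase and insert oxygen into drugs, steroids, bile acids and polyunsaturated fatty acids. In the mouse most of them are encoded in tandem clusters of near-identical paralogs, and the liver is a main site of expression. Several are highest in the hepatocytes around the central vein, but this does not hold for every member. Bulk liver gives no zone for any of them. Many are sex-biased through the pattern of growth hormone secretion, with Cyp2d9 a male-predominant gene and Cyp2a4, Cyp2b9, Cyp2b13, Cyp2c40 and Cyp2c69 female-predominant ones, and the nuclear receptors CAR and PXR induce several more.

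Reads of such paralogs can be told apart only where their sequences differ, and the results turn on 2 close pairs. Cyp2a4 (ENSMUSG00000074254, GRCm38 chr7:26307169-26315088, plus strand) and Cyp2a5 (ENSMUSG00000005547, chr7:26835305-26843548, plus strand) had coding sequences that were 98.4% identical, with 23 mismatches. For each coding pair, the 120 bases shown were picked as the stretch within a single exon with the most differences. They therefore differ more than the coding sequences as a whole. For this pair they lie in coding exon 2 of each, at chr7:26307662-26307781 and chr7:26835807-26835926. Capitals mark the 4 bases that differ between the pair.
Cyp2a4: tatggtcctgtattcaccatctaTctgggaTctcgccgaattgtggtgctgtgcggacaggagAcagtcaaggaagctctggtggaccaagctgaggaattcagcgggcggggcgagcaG
Cyp2a5: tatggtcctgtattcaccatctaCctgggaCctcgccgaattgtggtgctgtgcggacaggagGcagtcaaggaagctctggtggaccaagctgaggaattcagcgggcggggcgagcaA

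Cyp2c54 (ENSMUSG00000067225, chr19:40037940-40073827, minus strand) and Cyp2c50 (ENSMUSG00000054827, chr19:40089688-40113950, plus strand) were 95.2% identical in coding sequence, with 70 mismatches. The stretch of 120 bases with the most differences lies in coding exon 6, at chr19:40047526-40047645 on the minus strand and chr19:40096717-40096836 on the plus strand. It holds 16 differences between the pair, again in capitals.
Cyp2c54: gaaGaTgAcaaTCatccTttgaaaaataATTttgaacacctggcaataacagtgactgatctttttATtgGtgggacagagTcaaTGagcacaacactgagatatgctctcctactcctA
Cyp2c50: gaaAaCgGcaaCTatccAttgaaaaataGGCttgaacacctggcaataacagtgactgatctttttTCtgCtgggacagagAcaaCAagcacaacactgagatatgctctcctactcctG

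Over the whole transcripts, 4.22% of the 150-base windows of Cyp2a4 and 2.99% of those of Cyp2c54 occurred unchanged in another gene. The pair Cyp2c40 and Cyp2c69 shared more: 20.3% and 20.2% of their windows were found elsewhere, above all in each other, and their values below are uncertain to that extent. Of the windows of Cyp2c67 and Cyp2c68, 13.0% and 8.83% were found elsewhere, most often in Cyp2c40. These 2 are far more abundant, at mean levels of 227 and 144 CPM, against 3.19 CPM for Cyp2c40 and 1.06 CPM for Cyp2c69. Whether their reads were counted for the rarer genes was not tested. How the counting treated reads that fit several genes is not given in the sources used here.

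Upstream of the RefSeq start sites (GRCm38.p6), Cyp2a4 and Cyp2a5 were as alike as in their coding parts. The 250 bases before each start, chr7:26306942-26307191 and chr7:26835089-26835338 on the plus strand, aligned with 97.6% identity. Capitals mark the 4 mismatches and the single base at an end that falls outside the other window.
Cyp2a4: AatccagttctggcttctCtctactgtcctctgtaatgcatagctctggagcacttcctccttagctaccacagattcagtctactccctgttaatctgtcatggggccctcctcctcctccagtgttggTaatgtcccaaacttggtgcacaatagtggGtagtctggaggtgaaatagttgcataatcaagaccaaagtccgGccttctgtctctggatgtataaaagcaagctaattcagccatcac
Cyp2a5: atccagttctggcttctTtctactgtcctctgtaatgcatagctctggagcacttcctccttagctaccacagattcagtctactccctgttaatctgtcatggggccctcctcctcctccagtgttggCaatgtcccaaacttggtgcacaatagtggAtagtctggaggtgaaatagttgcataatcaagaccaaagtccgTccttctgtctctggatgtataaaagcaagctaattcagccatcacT

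Among 42 promoter windows of 250 bases, which covered 40 of the 48 members, motifs were searched on both strands. The HNF4-type word CAAAGTCCA was found in 6 windows (14.3%), against 0.384% of 32851 windows of all genes. All 6 belonged to Cyp2c genes on chromosome 19, several of which are copies of each other, and each is shown with 16 bases on either side of the word in capitals, on the gene's own strand.
Cyp2c40, chr19:39812835-39812875, minus strand: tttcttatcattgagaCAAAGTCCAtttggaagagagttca
Cyp2c65, chr19:39060874-39060914, plus strand: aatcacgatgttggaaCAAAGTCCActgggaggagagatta
Cyp2c67, chr19:39649143-39649183, minus strand: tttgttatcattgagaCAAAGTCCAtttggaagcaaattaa
Cyp2c68, chr19:39741154-39741194, minus strand: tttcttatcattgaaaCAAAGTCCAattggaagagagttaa
Cyp2c69, chr19:39886820-39886860, minus strand: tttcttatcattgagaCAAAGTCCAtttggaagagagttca
Cyp2c70, chr19:40187326-40187366, minus strand: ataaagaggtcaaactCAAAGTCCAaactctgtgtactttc
The word lay between 45 and 125 bases before the start. The word TATAAA was found on either strand in 18 windows (42.9%), against 12.4% of all windows, and several of these genes too are copies of each other. For Cyp2c70, Cyp2d9, Cyp2d10, Cyp2d26, Cyp2d40 and Cyp2j5 it lay on the opposite strand only. For Cyp2c65 and Cyp2c66 it lay 162 and 150 bases before the start. The STAT5 word TTCNNNGAA was found in 2 windows (4.76%), against 7.02%.

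The family's share of all counts was lowest in FPC-LIPA. It made up 1.55% to 1.97% of all counts in CON-GFP (median 1.79%), 1.04% to 1.63% in FPC-GFP (median 1.49%) and 0.631% to 1.24% in FPC-LIPA (median 0.948%). Every FPC-LIPA library lay below every CON-GFP library, and FPC-GFP overlapped with both. Without FPC-LIPA 36, 37 and 39, which held the 3 lowest shares, FPC-LIPA ran from 0.979% to 1.24%. In bulk liver, fewer hepatocytes and less RNA per hepatocyte cannot be told apart.

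A single gene, Cyp2e1, held the largest part of the family's counts in every library. Its share of them was 45.2% to 49.1% in CON-GFP, 32.3% to 46.8% in FPC-GFP and 38.6% to 44.8% in FPC-LIPA. Cyp2e1, an enzyme that oxidises ethanol and paracetamol, was also the highest member per length, at 2906 CPM per kb of exon over all libraries. Next on this scale came Cyp2d26 (452), Cyp2d10 (389.5), Cyp2d9 (388), Cyp2a5 (287), Cyp2f2 (287), Cyp2j5 (224), Cyp2c29 (196), Cyp2a12 (157) and Cyp2c50 (154). Neighbours in this order overlapped in their library values except Cyp2e1, whose lowest library lay above the highest of Cyp2d26. At the other end 8 members had no read in any library: Cyp2b19, Cyp2b23, Cyp2c66, Cyp2j7, Cyp2j12, Cyp2j13, Cyp2t4 and Cyp2w1. A count of 0 allows a level of up to 0.0795 CPM in the deepest library and 0.180 CPM in the shallowest.

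**Figure D1:**
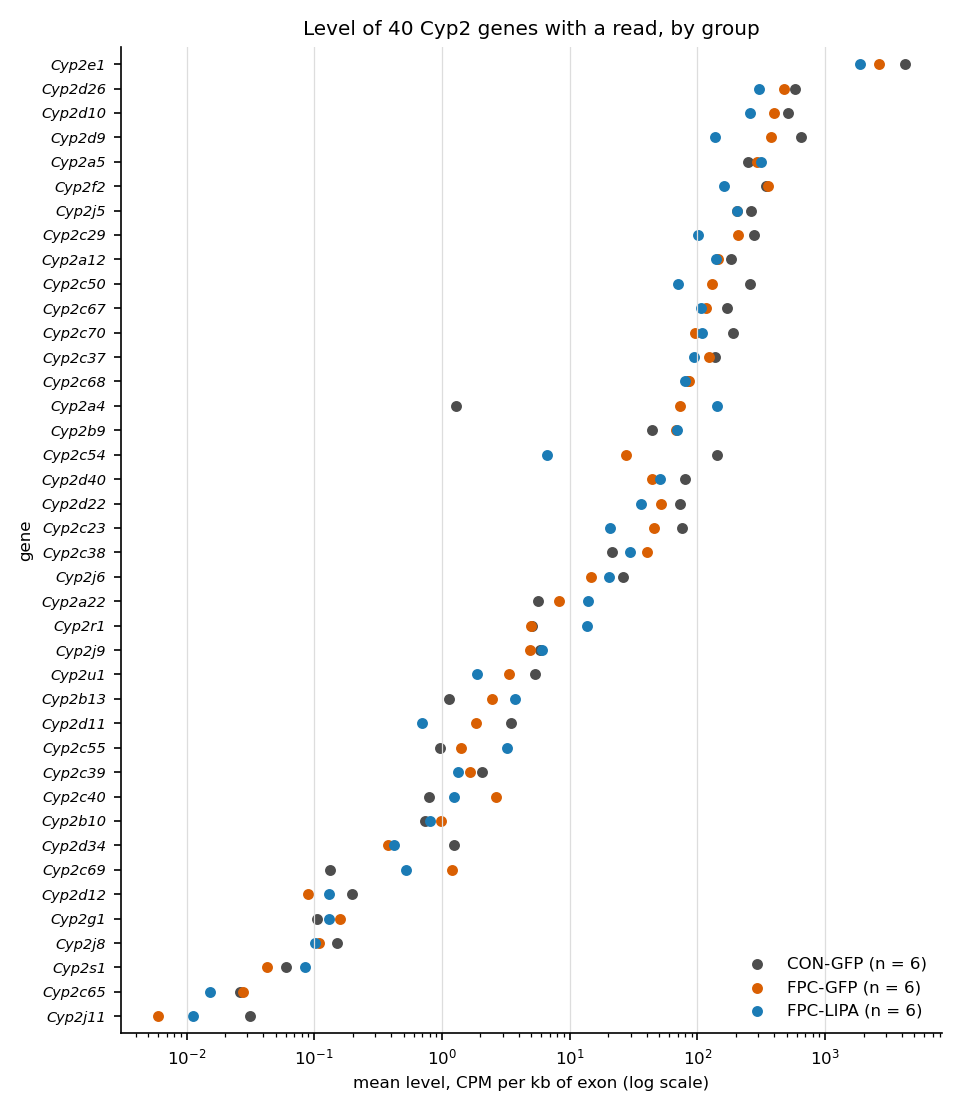
Mean level of the 40 Cyp2 genes with at least 1 read, in CPM per kb of exon on a log axis, with 1 point per group (n = 6 libraries each). Cyp2e1 leads at 2906 CPM per kb over all libraries, and the points of the groups lie far apart for Cyp2a4 and Cyp2c54.

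The first comparison, FPC-GFP against CON-GFP, asks what the diet does in livers that carry the same GFP virus. On the FPC diet more members fell than rose, but the largest change was a rise: Cyp2a4 went up 57.3-fold. Of the 35 members with enough reads to be tested, 14 fell and 4 rose at an adjusted p under 0.05 (edgeR quasi-likelihood test, Benjamini-Hochberg over all 14307 genes tested), against 10.9% of all genes lower and 12.9% higher. When a 2-fold change is also required, as for the DE genes below, 3 members were higher (4.76% of all genes) and 3 lower (2.44%), 6 in all (7.2%). The median log2 fold change of the 35 was -0.32, against 0.01 over all genes. Scaling by library size alone moved the median of all genes to 0.21 and that of the members to -0.11, and the split was then 4 higher and 6 lower. The count of 14 lower members was 5 with all 18 libraries in one fit, 7 in the libraries with sample sheet numbers 55 to 68, 8 without FPC-GFP 19 and 9 without CON-GFP 3. The sample sheet numbers of CON-GFP 1, CON-GFP 2, FPC-GFP 20 and FPC-LIPA 37 lie outside 55 to 68. The 3 lower DE members became 1 with library size alone, in the joint fit, and without FPC-GFP 13 or FPC-GFP 19. The share of all genes that were DE, 7.2%, was 8.94%, 5.46%, 7.06% and 5.94% in these fits, and 5.24% with sample sheet numbers 55 to 68. With any 1 library left out, the 4 higher members and 8 of the 14 lower ones passed each time. The other 6, Cyp2c23, Cyp2d12, Cyp2d34, Cyp2d40, Cyp2j5 and Cyp2u1, lost the call at least once.

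Cyp2a4, a steroid hydroxylase that female mice express at a higher level than males, was low in controls. Its lowest, median and highest levels were 0.461, 1.37 and 7.09 CPM in CON-GFP livers, 10.9, 84.8 and 286 CPM in FPC-GFP and 29.9, 191 and 675 CPM in FPC-LIPA. Every FPC-GFP library lay above every CON-GFP library, although FPC-GFP 20, at 10.9 CPM, was close to CON-GFP 3, at 7.09 CPM. On the log2 scale the change was 5.84 (SE 0.85, adjusted p = 0.000474). It was 5.43 to 6.69 when any single library was left out, and the gene was DE under each of 21 alternatives of scaling, filter, model and libraries.

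Its closest paralog did not pass. Cyp2a5, the coumarin hydroxylase, had lowest, median and highest levels of 341, 535 and 662 CPM in CON-GFP livers and 183, 716 and 798 CPM in FPC-GFP, and the groups overlapped, with a log2 change of 0.23 (SE 0.28, adjusted p = 0.578). Counts of Cyp2a4 as a share of those of both genes were 0.135% to 1.37% in CON-GFP, 1.35% to 28.2% in FPC-GFP and 9.45% to 38.1% in FPC-LIPA. The lowest FPC-GFP value (FPC-GFP 20) fell just inside the range of the controls, and the other 5 were 11.8% or higher. Of the remaining Cyp2a genes, Cyp2a12, a bile acid hydroxylase, had a log2 fold change of -0.32 (adjusted p = 0.106) and Cyp2a22 one of 0.55 (adjusted p = 0.368).

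**Figure D2:**
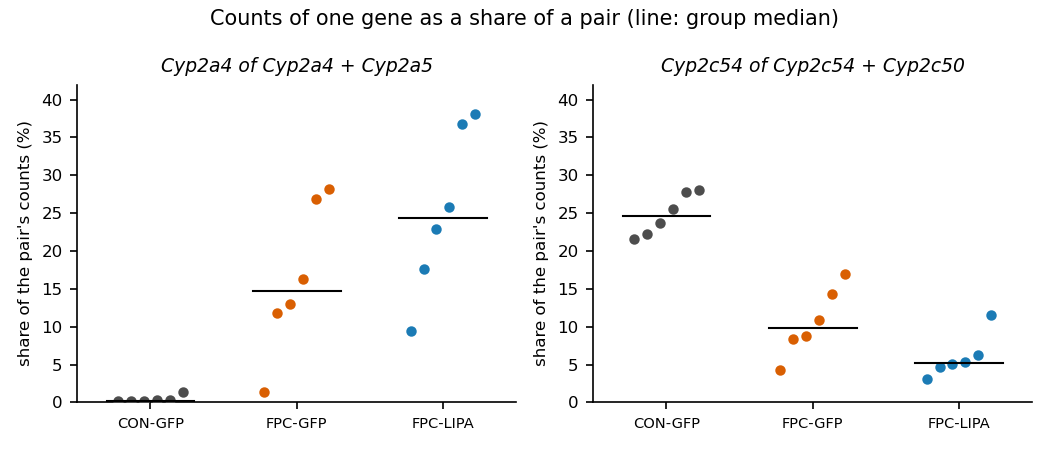
Counts of Cyp2a4 as a percentage of Cyp2a4 plus Cyp2a5 (left) and of Cyp2c54 as a percentage of Cyp2c54 plus Cyp2c50 (right), 1 point per library and a line at each group's median. The Cyp2a4 share is at most 1.37% in CON-GFP and up to 38.1% in FPC-LIPA, and the Cyp2c54 share is at least 21.6% in CON-GFP and at most 16.9% in FPC-GFP.

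Of the 5 Cyp2b genes, among them the classic CAR target Cyp2b10, 3 were tested. None passed, and all 3 log2 fold changes lay above 0: 1.13 (adjusted p = 0.11) for Cyp2b13, 0.62 (adjusted p = 0.297) for Cyp2b9 and 0.43 (adjusted p = 0.642) for Cyp2b10. Cyp2b10 stayed at low levels in every group, with 0.0577, 1.26 and 3.90 CPM as lowest, median and highest in CON-GFP and 0.350, 2.38 and 3.13 CPM in FPC-GFP.

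The Cyp2c genes, which include the main epoxygenases and hydroxylases of arachidonic acid in the liver, split: of 13 tested, 5 fell and 3 rose. The strongest fall of the whole family was that of Cyp2c54. Its lowest, median and highest levels were 152, 252 and 333 CPM in CON-GFP livers, 9.27, 38.1 and 107 CPM in FPC-GFP and 6.60, 12.1 and 21.1 CPM in FPC-LIPA. CON-GFP and FPC-GFP did not overlap. The log2 fold change was -2.35 (SE 0.42, adjusted p = 0.00168), a 5.09-fold drop that was DE under each of the same 21 alternatives.

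Its near-copy Cyp2c50 fell as well. It had 553, 797 and 868 CPM in CON-GFP livers and 207, 369 and 646 CPM in FPC-GFP as lowest, median and highest, with 1 FPC-GFP library inside the control range, and its log2 change was -0.99 (SE 0.22, adjusted p = 0.00615). Cyp2c54 supplied a smaller part of the pair's counts on the diet: 21.6% to 28.1% in CON-GFP, 4.29% to 16.9% in FPC-GFP and 3.07% to 11.6% in FPC-LIPA. The ranges of CON-GFP and FPC-GFP did not meet. Cyp2c37, the other close relative of Cyp2c50, had a log2 fold change of -0.14 (adjusted p = 0.619).

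The other Cyp2c genes that fell were Cyp2c70 at -0.98 (adjusted p = 0.0111), Cyp2c23 at -0.72 (adjusted p = 0.0312) and Cyp2c67 at -0.54 (adjusted p = 0.00622) on the log2 scale. Cyp2c70 makes the muricholic acids of rodent bile, and Cyp2c23 is an arachidonic acid epoxygenase. The call of Cyp2c23 was lost with all 18 libraries in one fit (adjusted p = 0.198), with library size alone (0.0847) and in 6 of 12 fits that left out 1 library (highest 0.0719), namely CON-GFP 1, 3 or 8 or FPC-GFP 11, 16 or 19. Cyp2c67 was among the members whose groups did not overlap, at 221 to 372 CPM in CON-GFP livers and 188 to 212 CPM in FPC-GFP. Cyp2c29, one of the abundant Cyp2c genes, did not pass, with a log2 fold change of -0.42 (adjusted p = 0.0526).

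Of the 3 Cyp2c genes that rose, 2 are female-predominant and were low throughout. Cyp2c69 had lowest, median and highest levels of 0.0331, 0.226 and 0.504 CPM in CON-GFP livers and 0.215, 1.60 and 5.33 CPM in FPC-GFP, with 1 FPC-GFP library inside the control range. Its log2 fold change was 3.20 (SE 0.70, adjusted p = 0.00543). Cyp2c40 had 0.515, 1.18 and 4.41 CPM in CON-GFP livers and 1.29, 5.60 and 8.79 CPM in FPC-GFP and its log2 change was 1.77 (SE 0.50, adjusted p = 0.0194), and CON-GFP 1 and CON-GFP 3 stood inside the FPC-GFP range. Cyp2c38, with levels of 45.5, 51.7 and 93.4 CPM in CON-GFP livers and 51.9, 128 and 145 CPM in FPC-GFP, rose by less, at 0.92 (SE 0.24, adjusted p = 0.0131). Cyp2c40 and Cyp2c69 lie side by side on chromosome 19 (39767071-39812814 and 39842814-39886799) and share sequence as given above, so their changes are not separate evidence. Of the 5 tested genes with the HNF4-type word shown above, Cyp2c40 and Cyp2c69 thus rose, Cyp2c67 and Cyp2c70 fell, and Cyp2c68 did not pass, at 0.03 (adjusted p = 0.904).

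The Cyp2d genes belong to the subfamily of human CYP2D6, a major drug-metabolising enzyme, and all 8 had log2 fold changes below 0 on the diet, of which 5 passed. Cyp2d9, a testosterone hydroxylase of male liver, had lowest, median and highest levels of 1193, 1769 and 2259 CPM in CON-GFP livers and 781, 968 and 1411 CPM in FPC-GFP. Its log2 fold change was -0.76 (SE 0.18, adjusted p = 0.00868), and a single FPC-GFP library, FPC-GFP 20 at 1411 CPM, lay inside the control range. Cyp2d22 was at -0.48 (adjusted p = 0.0202) and Cyp2d40 at -0.83 (adjusted p = 0.0434). The abundant Cyp2d10 and Cyp2d26 did not pass, at -0.35 (adjusted p = 0.0708) and -0.29 (adjusted p = 0.165).

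The 2 Cyp2d genes counted as DE were the 2 rarest, and both lost the call without CON-GFP 3. Both also lost it without FPC-GFP 13, 16 or 19, and Cyp2d34 without FPC-GFP 11 or 20 as well. Cyp2d34 was at 13.3 CPM in CON-GFP 3 and at 1.24 to 1.80 CPM in the other 5 controls, against 0.552 to 1.82 CPM in FPC-GFP. Its log2 fold change was -1.71 (SE 0.59, adjusted p = 0.0485), and -0.50 (adjusted p = 0.239) without CON-GFP 3. Cyp2d12 was at 1.69 CPM in CON-GFP 3 and at 0.420 to 0.807 CPM in the others, against 0.240 to 0.463 CPM in FPC-GFP. The log2 fold change of -1.17 (SE 0.36, adjusted p = 0.0304) became -0.79 (adjusted p = 0.082) without that library.

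Among the single-gene subfamilies and the Cyp2j genes, 4 members fell and none rose. Cyp2e1 had lowest, median and highest levels of 7831, 8744 and 10553 CPM in CON-GFP livers and 3194, 6517 and 6923 CPM in FPC-GFP. The groups did not overlap, and the log2 fold change was -0.65 (SE 0.18, adjusted p = 0.0165). FPC-GFP 11 and FPC-GFP 19, at 3194 and 4519 CPM, were the lowest and the other 4 libraries lay between 6349 and 6923 CPM.

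Cyp2j6 did not overlap either, at 79 to 117 CPM in CON-GFP livers and 36.9 to 65 CPM in FPC-GFP, and its log2 fold change of -0.84 (SE 0.14, adjusted p = 0.00119) had the lowest adjusted p among the members that fell. Cyp2j5, an arachidonic acid epoxygenase of liver and kidney, was at 537, 617 and 691 CPM in CON-GFP livers and 395, 483 and 553 CPM in FPC-GFP, with a log2 change of -0.35 (SE 0.12, adjusted p = 0.0437). Cyp2u1, a fatty acid hydroxylase, was at -0.67 (SE 0.20, adjusted p = 0.028), a call that was lost in the joint fit of 18 libraries (adjusted p = 0.0949) and without CON-GFP 3 or FPC-GFP 11, 12 or 19 (highest 0.0635). Cyp2f2, which activates naphthalene, and Cyp2r1, the vitamin D hydroxylase of the liver, had log2 fold changes of 0.06 (adjusted p = 0.845) and -0.02 (adjusted p = 0.954). In all, 5 members did not overlap between CON-GFP and FPC-GFP (10.4% of all genes): Cyp2a4 was higher, and Cyp2c54, Cyp2c67, Cyp2e1 and Cyp2j6 were lower (4.82%).

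**Figure D3:**
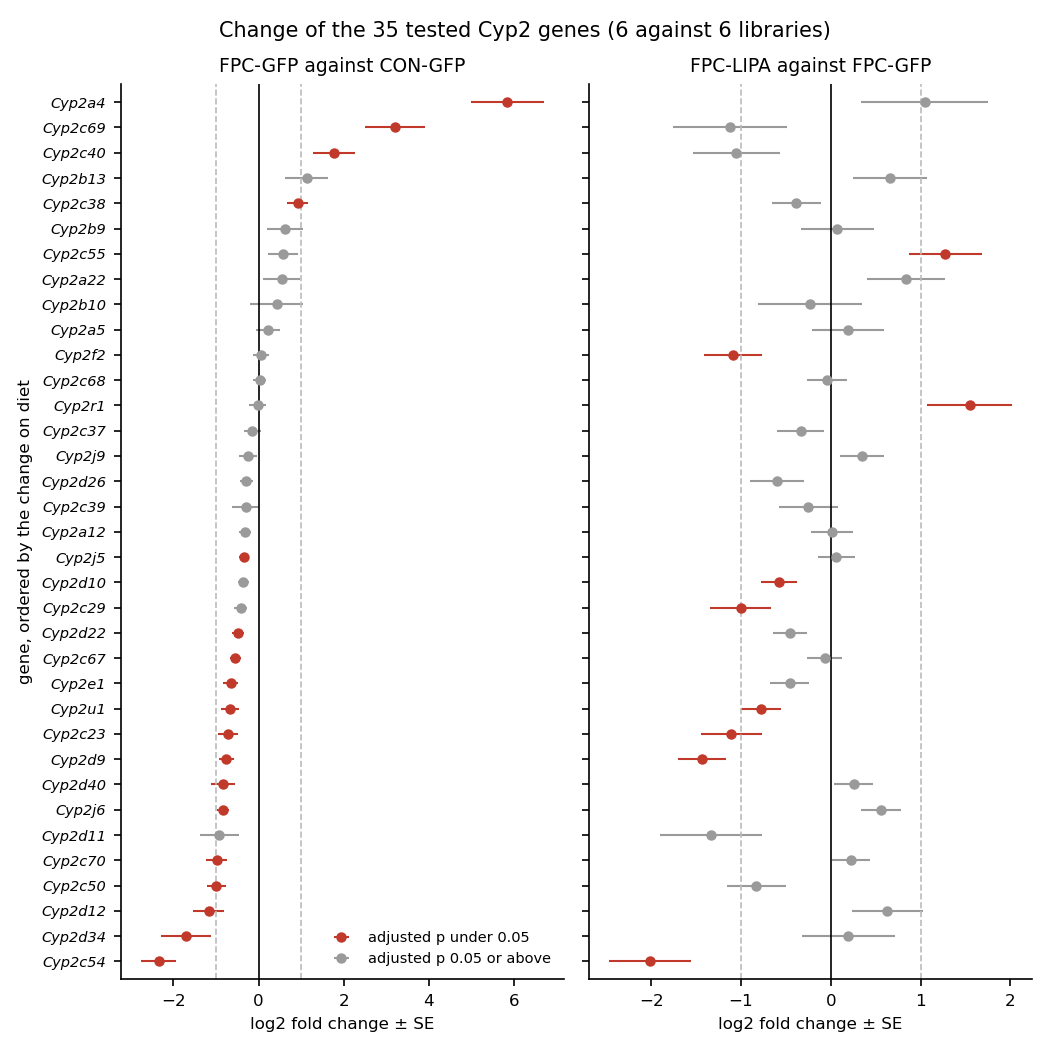
Log2 fold change with its standard error of the 35 tested Cyp2 genes in FPC-GFP against CON-GFP (left) and FPC-LIPA against FPC-GFP (right), both ordered by the left panel. Red points have an adjusted p under 0.05, grey points do not, the dashed lines mark a 2-fold change, and the horizontal scales of the panels differ. Cyp2a4 stands at 5.84 on the left, and Cyp2c54 is the lowest gene in both panels.

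The second comparison, FPC-LIPA against FPC-GFP, asks what LIPA adds on the FPC diet. It shares the FPC-GFP libraries with the first, so the results of the comparisons are not independent. Here too more members fell than rose, with Cyp2c54 and Cyp2d9 the clearest. Of the 35 tested members 7 fell and 2 rose (6.87% and 14.4% of all 14620 genes), and with the 2-fold minimum 5 were lower (1.11%) and 2 higher (10.3%), 7 in all (11.4%). The median log2 fold change was -0.23, against 0.04 over all genes. Scaling by library size alone moved the median of all genes to -0.09 and that of the members to -0.33, with 2 members lower and none higher. Leaving out any 1 FPC-GFP library, or FPC-LIPA 36, 37 or 39, brought the 7 lower members to between 2 and 4 and the 2 higher ones to 0 or 1. Without FPC-LIPA 33 the lower count was 10. The share of all genes that were DE moved as well, from 11.4% to between 5.80% and 9.17% in the former fits and to 17.8% without FPC-LIPA 33.

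Of the members that fell, Cyp2d9 kept its call under the most alternatives. Its lowest, median and highest levels were 781, 968 and 1411 CPM in FPC-GFP and 125, 384 and 485 CPM in FPC-LIPA, with no overlap. The log2 fold change was -1.43 (SE 0.27, adjusted p = 0.011). Its adjusted p was above a stricter threshold of 0.01, but at 0.05 the gene was DE under each of 22 alternatives of scaling, filter, model and libraries, among them the fit with FPC-LIPA 31, 33 and 34 alone, at -1.15 (adjusted p = 0.0279). On the same scale the diet comparison had given -0.76.

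Cyp2c54 had 9.27, 38.1 and 107 CPM in FPC-GFP and 6.60, 12.1 and 21.1 CPM in FPC-LIPA as lowest, median and highest, and 1 FPC-GFP library, FPC-GFP 19 at 9.27 CPM, lay among the FPC-LIPA values. The log2 fold change was -2.01 (SE 0.46, adjusted p = 0.0157). With FPC-LIPA 31, 33 and 34 alone it was -1.88 (adjusted p = 0.135), a similar size that no longer passed. Its partner Cyp2c50 did not pass, at -0.83 (adjusted p = 0.0791). Cyp2u1, the other of the 2 members without overlap (7.66% of all genes, 4.3% lower), was at 15.1 to 21.2 CPM in FPC-GFP and 5.31 to 14.9 CPM in FPC-LIPA, with a log2 change of -0.78 (SE 0.22, adjusted p = 0.0291). Cyp2d10 fell by less, at -0.58 (SE 0.20, adjusted p = 0.0489). With FPC-LIPA 31, 33 and 34 alone, Cyp2u1 was at -0.45 (adjusted p = 0.173) and Cyp2d10 at -0.41 (adjusted p = 0.184), and neither passed.

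For 4 more DE members the shift sat mainly in the FPC-LIPA libraries with the high ribosomal share. Cyp2r1 was at 42.1, 61.7 and 39.7 CPM in FPC-LIPA 36, 37 and 39. Its levels in the other libraries of that group, FPC-LIPA 31, 33 and 34, were 10.7, 6.62 and 13.1 CPM, within or just below the FPC-GFP range of 7.59 to 14.3 CPM. The log2 fold change was 1.54 (SE 0.47, adjusted p = 0.0349) over all libraries and -0.06 (adjusted p = 0.926) with FPC-LIPA 31, 33 and 34 alone.

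Cyp2c29 showed the reverse picture, at 186, 130.4 and 152 CPM in FPC-LIPA 36, 37 and 39, whereas it was at 268, 646 and 479 CPM in FPC-LIPA 31, 33 and 34. FPC-GFP ran from 531 to 837 CPM. Its log2 fold change went from -1.005 (SE 0.34, adjusted p = 0.0484) to -0.44 (adjusted p = 0.348) when the first 3 were left out. Cyp2c23 was at 21.8, 16.4 and 25.9 CPM in those 3 and 48.1, 83.5 and 71.7 CPM in the others, and its log2 fold change went from -1.11 (SE 0.34, adjusted p = 0.0366) to -0.52 (adjusted p = 0.236).

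Cyp2f2 was at 139.5, 157 and 227 CPM in FPC-LIPA 36, 37 and 39, at 302, 491 and 665 CPM in FPC-LIPA 31, 33 and 34, and at 603 to 812 CPM in FPC-GFP. Its log2 fold change was -1.09 (SE 0.32, adjusted p = 0.032), and -0.56 (adjusted p = 0.199) without the 3 libraries. The same split marked Cyp2d26, which did not pass: it was at 217 to 405 CPM in FPC-LIPA 36, 37 and 39 and at 506 to 978 CPM in the others, with a log2 fold change of -0.60 (adjusted p = 0.146) over all libraries and -0.11 (adjusted p = 0.807) without FPC-LIPA 36, 37 and 39. Whether the ribosomal share of these libraries has a part in these differences was not tested.

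**Figure D4:**
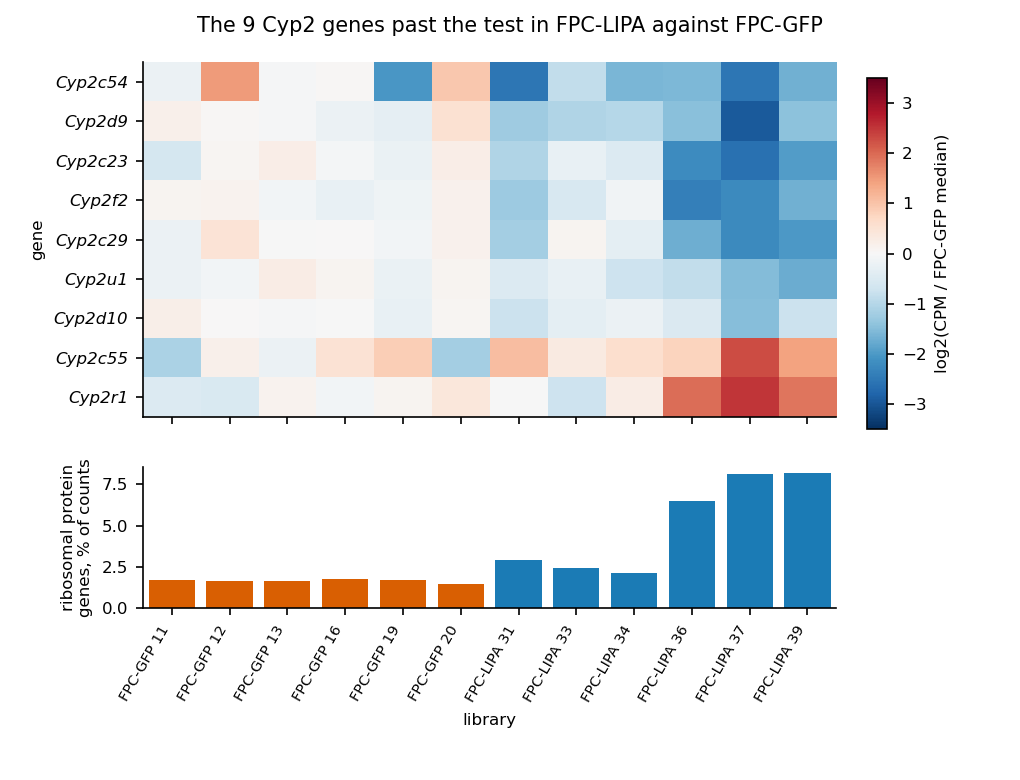
The 9 Cyp2 genes with an adjusted p under 0.05 in FPC-LIPA against FPC-GFP. Colours give log2 of each library's CPM over the FPC-GFP median of that gene, and bars give the share of counts in 89 rows of ribosomal protein genes. The colours of Cyp2r1, Cyp2c29, Cyp2c23 and Cyp2f2 are strongest in FPC-LIPA 36, 37 and 39, where the bars reach 6.49% to 8.16%, while Cyp2d9 is lower in all 6 FPC-LIPA libraries.

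Cyp2c55, which metabolises arachidonic acid and is induced through CAR and PXR, was the other DE gene that rose. Its lowest, median and highest levels were 1.20, 2.76 and 4.97 CPM in FPC-GFP and 3.43, 5.28 and 13.4 CPM in FPC-LIPA, and the groups overlapped. The log2 fold change was 1.27 (SE 0.40, adjusted p = 0.0392), and 0.67 (adjusted p = 0.378) with FPC-LIPA 31, 33 and 34 alone. With those 3 libraries 1 of 38 tested members passed, Cyp2d9, and it was lower. Few genes passed in that smaller comparison: 0.112% of all 15246 tested were lower and 1.11% higher.

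The members that had risen on the diet did not pass here. Cyp2a4 had a log2 change of 1.04 (SE 0.70, adjusted p = 0.277), with FPC-LIPA 39 at 675 CPM and FPC-LIPA 33 at 29.9 CPM. Cyp2c69 was at -1.12 (adjusted p = 0.195), Cyp2c40 at -1.05 (adjusted p = 0.12) and Cyp2c38 at -0.38 (adjusted p = 0.298). Among the abundant members that did not pass were Cyp2e1 at -0.46 (adjusted p = 0.13), with 2908, 4277 and 4587 CPM as lowest, median and highest in FPC-LIPA, Cyp2a5 at 0.19 (adjusted p = 0.743), Cyp2j5 at 0.06 (adjusted p = 0.845) and Cyp2a12 at 0.02 (adjusted p = 0.96). None of the 4 Cyp2a, 3 Cyp2b or 3 Cyp2j genes tested passed.

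**Figure D5:**
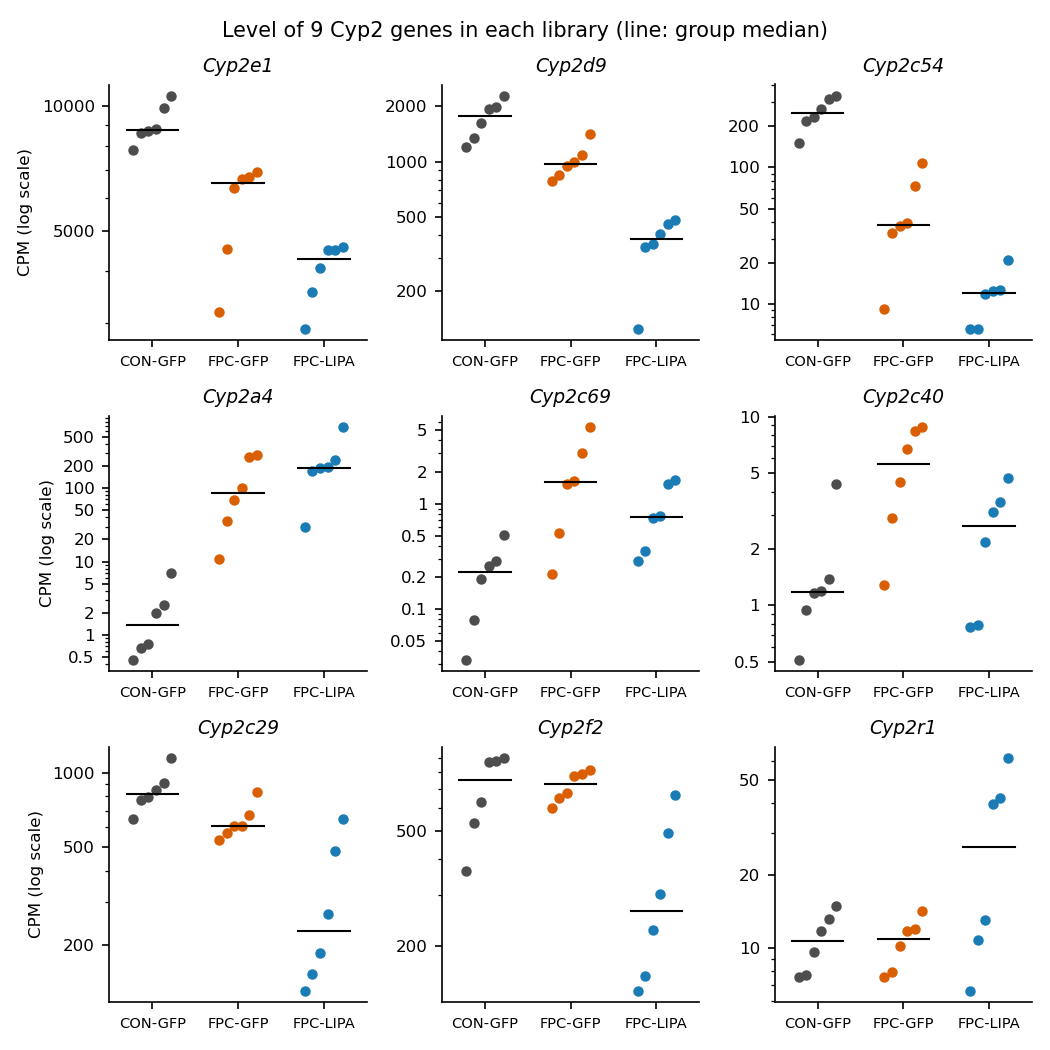
Level of 9 Cyp2 genes in each of the 18 libraries, in CPM on log axes that differ between panels, with a line at each group's median. Cyp2d9 separates all 3 groups except for 1 FPC-GFP library at 1411 CPM, and Cyp2r1 splits FPC-LIPA into 3 libraries at 39.7 to 61.7 CPM and 3 at 6.62 to 13.1 CPM.

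Other sex-biased genes of the liver were listed for comparison, chosen from background knowledge and outside family 2. Beside the counts of this and the later lists, 12.9% of all genes passed and were higher on the diet and 10.9% lower. With LIPA these shares were 14.4% and 6.87%. For DE genes they were 4.76% and 2.44% on the diet and 10.3% and 1.11% with LIPA. Of 13 male-predominant genes tested, 7 were DE and lower on the diet (median log2 fold change -1.37), and 7 were lower and 1 higher in FPC-LIPA against FPC-GFP (median -1.01). Hsd3b5, a steroid dehydrogenase of male liver, was at -3.14 (SE 1.04, adjusted p = 0.0401) on the diet and -5.04 (SE 1.21, adjusted p = 0.018) with LIPA. Selenbp2 was at -2.37 (adjusted p = 0.0255) and -1.93 (adjusted p = 0.0148), and the major urinary protein gene Mup7 at -2.61 (adjusted p = 0.113) and -4.77 (adjusted p = 0.0195). The values of Hsd3b5 and Mup7 rested on FPC-GFP 20, the library that was also nearest to the controls for Cyp2a4 and Cyp2d9. Hsd3b5 was at 103 CPM there, at 0.491 to 2.96 CPM in the other FPC-GFP livers and at 0.320 to 0.733 CPM in FPC-LIPA, and without FPC-GFP 20 its log2 change was -6.33 (adjusted p = 8.86e-06) on the diet and -1.85 (adjusted p = 0.0379) with LIPA. Its diet call was lost in 10 of the other 11 fits that left out 1 library (highest adjusted p = 0.0719). Mup7 was at 3759 CPM in FPC-GFP 20 and 30.6 to 569 CPM in the other 5, and without that library it was at -4.71 (adjusted p = 0.00798) on the diet and -2.68 (adjusted p = 0.0517) with LIPA. Against this direction, Mup20 was at -0.25 (adjusted p = 0.397) on the diet and 2.26 (adjusted p = 0.0159) with LIPA.

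Of 16 female-predominant genes 9 were tested. On the diet Slc22a26, at 1.52 (adjusted p = 0.017), and Slc22a27, at 1.48 (adjusted p = 0.0199), were DE and higher, and Atp6v0d2, at -1.19 (adjusted p = 0.0216), was lower (median of the 9, 0.47). Hamp2 and Fmo2 did not pass in either comparison. With LIPA 3 were higher: Hao2 at 1.85 (adjusted p = 0.0264), Atp6v0d2 at 1.73 (adjusted p = 0.0142) and Slc22a27 at 1.55 (adjusted p = 0.0382) (median 0.25).

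Zonation markers fell in both zones on the diet. Of 12 genes of the pericentral hepatocytes, 7 fell and none rose (median -0.77), with Rhbg at -1.36 (adjusted p = 0.0257), Oat at -1.35 (adjusted p = 0.00217), Cyp1a2 at -1.11 (adjusted p = 0.00177) and Gulo at -1.06 (adjusted p = 0.000843). Glul, the glutamine synthetase of the innermost cells, had a log2 fold change of -0.16 (adjusted p = 0.37). Of 12 periportal genes 7 fell and 1 rose (median -0.74), with Pigr at -1.50 (adjusted p = 0.000317), Sds at -1.35 (adjusted p = 0.00618), Hal at -1.19 (adjusted p = 0.000462), Ass1 at -1.14 (adjusted p = 0.00281), Pck1 at -0.85 (adjusted p = 0.0304) and Arg1 at -0.63 (adjusted p = 0.00391). With LIPA 3 pericentral genes fell (median -0.41), and 1 periportal gene, Ctsc, rose, at 0.97 (adjusted p = 0.0315) (median -0.19).

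Targets of CAR and PXR outside the family moved apart from one another. On the diet 4 of 13 tested rose and 1 fell, all of them DE: Ephx1 was at 1.13 (adjusted p = 0.000222), Gstm3 at 3.03 (adjusted p = 0.000637), Abcc4 at 2.83 (adjusted p = 0.000257) and Gstm1 at 1.93 (adjusted p = 0.000189), and the transporter Slco1a4 was at -1.65 (adjusted p = 0.00461). With LIPA 2 rose, Cyp3a11, the main family 3 P450 of mouse liver, at 1.41 (adjusted p = 0.0204) and Slco1a4 at 1.05 (adjusted p = 0.0235).

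Of 14 genes of electron supply to P450 enzymes or of haem synthesis and breakdown, 2 rose and 2 fell on the diet, none of them by 2-fold. Of all genes 12.9% rose and 10.9% fell. With LIPA 3 rose (14.4% of all genes). Those that rose on the diet were Cyb5b, at 0.42 (adjusted p = 0.00898), and Hmox1, which breaks haem down, at 0.79 (adjusted p = 0.00122). Por, the oxidoreductase that feeds every family 2 enzyme, had log2 fold changes of 0.11 (adjusted p = 0.866) and -0.21 (adjusted p = 0.709). Cyb5a fell on the diet, at -0.85 (adjusted p = 0.00204), and rose with LIPA, at 0.81 (adjusted p = 0.0471), and Pgrmc1, a haem-binding partner of P450 enzymes, rose with LIPA, at 1.27 (adjusted p = 0.0356).

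Of 19 regulators of liver P450 genes, 5 fell in each comparison and none rose. On the diet Nr1i3, which encodes CAR, was at -0.70 (adjusted p = 0.0144), Nr1i2, which encodes PXR, at -0.67 (adjusted p = 0.00994) and Ghr, the growth hormone receptor, at -1.06 (adjusted p = 0.00232), and Ahr and Nr1h4 fell too, at -0.76 (adjusted p = 0.0185) and -0.34 (adjusted p = 0.0354). With LIPA none of these passed, and those that fell included Onecut1 at -2.38 (adjusted p = 0.0359), Hnf4a at -0.98 (adjusted p = 0.0425), Rxra at -0.95 (adjusted p = 0.0183) and Cebpa at -0.88 (adjusted p = 0.0159). The size of the Onecut1 value leans on FPC-GFP 20, where the gene was at 23.4 CPM. It was at 1.57 to 7.59 CPM in the other FPC-GFP livers and at 0.0718 to 2.92 CPM in FPC-LIPA. Stat5b, which relays the growth hormone signal, did not pass in either, at -0.25 (adjusted p = 0.264) and -0.37 (adjusted p = 0.199).

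Markers of other cell types moved with the groups and are given beside these results. All 8 Kupffer cell markers rose on the diet (median 1.25), their summed level running from 142 to 295 CPM in CON-GFP livers, 404 to 710 CPM in FPC-GFP and 490 to 1083 CPM in FPC-LIPA, and 3 rose again with LIPA. On the diet Clec4f was at 1.01 (adjusted p = 0.00113), Cd5l at 1.52 (adjusted p = 0.000276), Marco at 2.11 (adjusted p = 0.0128), Adgre1 at 1.56 (adjusted p = 0.000158) and Csf1r at 1.39 (adjusted p = 0.000893).

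Of 15 leukocyte markers, 1 of the 12 tested rose and 1 fell on the diet and 6 of the 13 tested rose with LIPA (median 1.17), with summed levels of 43.4 to 97.8, 94.5 to 294 and 404 to 732 CPM. With LIPA the B cell marker Ms4a1 rose, at 2.32 (adjusted p = 0.0173), as did the neutrophil genes S100a8 and S100a9, at 2.90 (adjusted p = 0.0183) and 2.63 (adjusted p = 0.00954), and Lyz2 and Ptprc, at 1.88 (adjusted p = 0.00844) and 1.67 (adjusted p = 0.0159). The T cell marker Cd4 fell on the diet, at -2.04 (adjusted p = 0.00331).

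Stellate cell and fibroblast markers rose in 4 of 9 cases on the diet (median 0.81) and 3 of 9 with LIPA (median -0.13). Their summed levels in CON-GFP, FPC-GFP and FPC-LIPA were 190.1 to 296, 255 to 335 and 340.4 to 998 CPM. In FPC-LIPA 37 Col3a1 and Dcn were at 377 and 520 CPM, against at most 137 and 237 CPM in the other FPC-LIPA libraries. The collagen genes Col1a1, Col1a2 and Col3a1 were at 1.84 (adjusted p = 0.0002), 1.15 (adjusted p = 0.000418) and 1.15 (adjusted p = 0.00148) on the diet, and Dcn at -0.03 (adjusted p = 0.878). Of 7 endothelial markers 4 rose on the diet and none with LIPA. Cdh5 rose on the diet, at 1.13 (adjusted p = 0.000158), and the highest of that list, Clec4g and Stab2, were at 0.20 (adjusted p = 0.35) and -0.08 (adjusted p = 0.663). Of 6 cholangiocyte markers 1 rose on the diet, Spp1, at 0.95 (adjusted p = 0.00712).

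Of the 9 hepatocyte markers found, 1 fell on the diet (median -0.27) and 3 fell with LIPA (median -0.42), with Serpina1c at -1.07 (adjusted p = 0.00231) and -1.02 (adjusted p = 0.0319), Alb at -0.15 (adjusted p = 0.466) and -0.23 (adjusted p = 0.387), and Apoa1 at -0.10 (adjusted p = 0.723) and 0.44 (adjusted p = 0.142). Their summed levels were 79618 to 110639, 66419 to 93464 and 53479 to 80629 CPM. No marker of any of these lists was at 0 in all libraries. The part that the mixture of cells has in the changes of the family was not tested.

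The list values with LIPA given above used all 6 FPC-LIPA libraries. With FPC-LIPA 31, 33 and 34 alone, 6 genes of these lists passed. The male-predominant Cyp4a12a and Cyp4a12b were lower, at -1.12 (adjusted p = 0.0350) and -1.59 (adjusted p = 0.0479), the Kupffer cell markers Cd5l and Adgre1 were higher, at 1.08 (adjusted p = 0.0325) and 1.35 (adjusted p = 0.0418), and so were the leukocyte genes Ptprc, at 1.14 (adjusted p = 0.0325), and Lyz2, at 1.46 (adjusted p = 0.0418). The median log2 fold change with these libraries was -1.31 for the male-predominant genes, 0.76 for Kupffer cell, 1.17 for leukocyte and -0.46 for hepatocyte markers, against 0.01 over all genes.

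Finally, 13 members were not tested in either comparison because they failed the filter on low counts: the 8 without a read, and Cyp2c65, Cyp2g1, Cyp2j8, Cyp2j11 and Cyp2s1. Of these Cyp2s1, a retinoid-metabolising P450 of epithelia, had the highest mean, 0.310 CPM. Cyp2g1, known from the olfactory mucosa, was at 0.159, 0.181 and 0.383 CPM as lowest, median and highest in CON-GFP and 0.0622, 0.347 and 0.681 CPM in FPC-GFP.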

How the data were processed

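The authors made libraries from total liver RNA with an unstranded or a stranded TruSeq kit, trimmed the paired reads with Trimmomatic, aligned them with HISAT2 2.1.0 to GRCm38 (mm10) and deposited raw read counts per gene from featureCounts. Strand setting, annotation release and treatment of reads that fit several genes are not given in the sources used here. Of 23 columns of counts, 5 matched no sample here and were not used. Totals ran from 16632146 to 37739301 counts, and 45 pairs of replicates all differed by more than sampling noise (lowest chi-square per degree of freedom 15.4).

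Counts were fitted per comparison over all genes with edgeR 4.0.16 in R 4.3.3 (filterByExpr, TMM scaling, quasi-likelihood test, Benjamini-Hochberg), after the study's own use of edgeR. A gene passed at an adjusted p under 0.05 and was differentially expressed (DE) with a fold of at least 2 as well. CPM values are scaled by the TMM factors. Levels per kb divide by the union of a gene's exons (GENCODE M21). Labels number the mice, and nothing says whether they shared cages or litters. The fits were tested on simulated data. Floors cover counting error only. Alternatives were DESeq2 1.42.0 size factors and Wald test, upper-quartile factors, library size alone, no filter, a minimum of 1 CPM in 6 libraries, a joint fit of all 18 libraries, sample sheet numbers 55 to 68, a length trend removed with a lowess curve through log CPM (prior count 2), each replicate left out, a threshold of 0.01 and no fold minimum. The fit with FPC-LIPA 31, 33 and 34 alone, and the leave-one-out values of list genes, were chosen after seeing the data. Sequences were read with Biopython 1.88 from RefSeq promoters (GRCm38.p6) and the GRCm38 genome with GENCODE M21.

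The members and gene lists were chosen with earlier results of these data known. Named with values were members called DE in either comparison and the 10 with the highest mean CPM per kb, and of each list up to 4 DE genes and the 2 highest. Other members and genes were named after their values were seen. Some genes of the lists and 1 motif are not reported here.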

Additional observations from a re-analysis of the deposited data

Results flagged for a closer look

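Single libraries far from the rest of their group stood out in 7 of 57 groups of 6 libraries examined. In independent groups of normally distributed values, chance marks about 1 group in 20. Levels of rare genes are skewed and the groups here share libraries, so the rate in these data was not tested. The members flagged below were all DE on the diet, and the calls of Cyp2d34 and Cyp2d12 were lost without CON-GFP 3, among other fits. Their flags are therefore not separate evidence about that library, and 7 of 57 cannot be weighed against the rate of 1 in 20. CON-GFP 3 was the highest of its group for 4 rare members: Cyp2a4 at 7.09 CPM (next highest 2.53), Cyp2c40 at 4.41 CPM (1.38), Cyp2d12 at 1.69 CPM (0.807) and Cyp2d34 at 13.3 CPM (1.80). In FPC-LIPA, Cyp2a4 was at 675 CPM in FPC-LIPA 39 (next highest 238), Cyp2d12 at 1.05 CPM in FPC-LIPA 33 (0.502) and Cyp2d34 at 3.51 CPM in FPC-LIPA 31 (1.12). What set these libraries apart was not tested.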

How the results depend on the processing

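No paired analysis was possible because the groups share no replicate numbers. On the diet 3 members were DE and higher and 3 lower. The lower count was 1 with library size alone, 1 with all 18 libraries in one fit, 1 at a threshold of 0.01 and 14 with no fold minimum. Leaving out 1 library gave 3 to 5 higher (5 without FPC-GFP 20) and 1 to 5 lower (1 without FPC-GFP 13 or FPC-GFP 19, 5 without CON-GFP 8 or FPC-GFP 12). Of all genes tested, 7.2% were DE in the reported fit, 8.94% with library size alone and 5.46% with all 18 libraries in one fit. The share was 5.94% to 7.93% when 1 library was left out. At an adjusted p under 0.05 the 14 lower members became 6 with library size alone, 5 with all 18 libraries in one fit and 7 with sample sheet numbers 55 to 68, and 8 to 16 when 1 library was left out. The 4 higher members became 4 to 5. The median log2 fold change of -0.32 was -0.11 with library size alone and -0.38 to -0.29 when 1 library was left out.

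With LIPA 2 members were DE and higher and 5 lower. The higher count was 0 with library size alone, 0 with sample sheet numbers 55 to 68, 0 with FPC-LIPA 31, 33 and 34 only, 0 at a threshold of 0.01, 1 with the length trend removed, and 0 to 2 when 1 library was left out. The lower count was 2 with library size alone, 1 with sample sheet numbers 55 to 68, 1 with FPC-LIPA 31, 33 and 34 only, 0 at 0.01, and 2 to 6 when 1 library was left out. Of all genes tested, 11.4% were DE in the reported fit and 6.95% with library size alone. The share was 0.651% with sample sheet numbers 55 to 68, 0.761% with FPC-LIPA 31, 33 and 34 only and 5.80% to 17.8% when 1 library was left out. At an adjusted p under 0.05 the 2 higher members became 0 with library size alone, 0 with the sample sheet subset, 0 with FPC-LIPA 31, 33 and 34 only, 1 with the length trend removed and 0 to 3 when 1 library was left out. The 7 lower members became 2, 1 and 1 with the first 3 of these and 2 to 10 when 1 library was left out. The median was -0.30 to -0.07 when 1 library was left out. Fewer libraries enter the subsets. The cause was not tested for the other alternatives.

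Log2 fold changes that turned sign were small in the reported fit, except that of Cyp2r1 with LIPA, which was -0.0579 with FPC-LIPA 31, 33 and 34 only. For Cyp2r1 on the diet the value was 0.00397 with upper-quartile factors, 0.20 with library size alone, 0.0539 with sample sheet numbers 55 to 68, and -0.13 to 0.10 when 1 library was left out. Cyp2f2 on the diet was -0.0723 to 0.14 when 1 library was left out. With LIPA, Cyp2a12 was -0.16 with library size alone, -0.0550 with no filter, -0.27 with the sample sheet subset, -0.13 with FPC-LIPA 31, 33 and 34 only and -0.22 to 0.12 when 1 library was left out. Cyp2a5 was -0.0523 with library size alone, -0.71 with FPC-LIPA 31, 33 and 34 only and -0.0417 to 0.35 when 1 library was left out. Cyp2d34 was -0.52 without FPC-LIPA 31 and at most 0.42 when another library was left out. Cyp2j5 was -0.14 with library size alone, -0.0129 with no filter, -0.11 with the sample sheet subset, -0.0287 with the length trend removed, -0.26 with FPC-LIPA 31, 33 and 34 only and -0.12 to 0.13 when 1 library was left out. Among the recomputed values of single members, 751 kept direction and call, 91 lost the call, 14 gained it and 32 turned sign. Depth limits only the rare members.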
